A study of Mus musculus with 18 samples.

Results

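A set of 10 genes around the nuclear receptor PPAR-gamma and the uptake of lipid were followed through every group of the series: Pparg, Ppargc1b, Cd36, Fabp4, Fabp5, Plin2, Lpl, Lpin1, Pdk4 and Angptl4. They were found by gene symbol as 10 of the 23052 symbols in each of the deposited count tables, and all 10 passed the filter on low counts in both tables. The cells were bone marrow-derived macrophages of C57BL6/J wild type mice, grown for 7 days in 20% L929-conditioned medium and 80% DMEM. Endotoxin-tolerant macrophages were kept without glutamine but with α-ketoglutarate (AKG), without glutamine, or with glutamine, 4 libraries each. In a second set, macrophages received IL-4 for 6 h, LPS for 6 h, or were untreated, 2 libraries each. The labels do not give the tolerance protocol, the doses, or whether replicates were separate mice or cultures, so the p-values measure only the spread between these libraries, which may be technical.

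PPAR-gamma is a lipid-activated transcription factor that binds DNA as a dimer with the retinoid X receptor, and Ppargc1b encodes PGC-1β, a coactivator that works with it. Its known targets carry fatty acids into and through the cell: lipoprotein lipase (Lpl) frees them from triglyceride, Angptl4 inhibits that lipase, CD36 takes them up with oxidised lipoprotein, the binding proteins FABP4 and FABP5 move them in the cytosol, and perilipin 2 (Plin2) coats the droplets that store them. Lipin 1 (Lpin1) is a phosphatidate phosphatase of triglyceride synthesis that can also act as a coactivator, and Pdk4 encodes a kinase that turns off pyruvate dehydrogenase and so favours fatty acid burning. In macrophages PPAR-gamma is known for its induction by IL-4 through STAT6 and for its part in foam cell formation.

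Promoter windows of 250 bases before a RefSeq gene start (build GRCm38.p6) were on hand for 5 of the 10 genes, in 7 windows. The 3 windows that held a searched motif are shown, and those that held none are not. The element of PPAR and the retinoid X receptor was searched as 2 copies of AGGTCA parted by 1 base, with up to 2 mismatches. The STAT6 element was searched as TTC and GAA parted by 4 bases, with no mismatch. Both strands were searched, and capitals mark the match. The windows are Lpin1 at chr12:16610967-16611216, Plin2 at chr4:86670060-86670309 and Cd36 at chr5:17835897-17836146, all on the minus strand and written in the direction of the gene.
Lpin1: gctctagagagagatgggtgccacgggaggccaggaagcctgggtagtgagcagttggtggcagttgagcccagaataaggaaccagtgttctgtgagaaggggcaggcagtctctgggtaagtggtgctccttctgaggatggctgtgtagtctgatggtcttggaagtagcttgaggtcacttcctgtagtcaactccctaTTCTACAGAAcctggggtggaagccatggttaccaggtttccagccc
Plin2: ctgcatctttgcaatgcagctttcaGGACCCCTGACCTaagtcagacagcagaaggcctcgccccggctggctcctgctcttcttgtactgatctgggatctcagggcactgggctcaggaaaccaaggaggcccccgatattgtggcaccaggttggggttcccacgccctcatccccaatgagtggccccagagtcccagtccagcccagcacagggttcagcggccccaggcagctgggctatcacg
Cd36: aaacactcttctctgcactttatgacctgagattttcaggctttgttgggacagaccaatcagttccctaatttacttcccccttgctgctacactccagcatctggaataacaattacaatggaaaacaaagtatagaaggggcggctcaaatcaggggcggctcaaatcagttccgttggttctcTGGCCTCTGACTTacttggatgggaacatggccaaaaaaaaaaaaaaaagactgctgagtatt
The Lpin1 match to the STAT6 element began 47 bases before the start. The receptor element began 225 bases before the start of Plin2 and 63 bases before that of Cd36, in both on the strand opposite to the gene. The Cd36 window lies inside the annotated gene (chr5:17781690-17888801), so it precedes an internal start. The single Pdk4 window and the 3 Pparg windows held neither string of letters. Among 32851 RefSeq promoter windows of the same length, the receptor element occurred in 3.24% and the STAT6 element in 5.85%, and a match is not a measured site.

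Tolerant libraries held about 28302200 to 37834700 counts, and those of the stimulation set about 34227400 to 39760400. Values are on the CPM scale, a gene's counts relative to the library's total, with the totals adjusted by TMM, a method that sets the bulk of genes level between libraries. Macrophage markers were abundant in every group, and all 10 were tested, with summed levels of 27578 to 47821 CPM. Of 7 adipocyte markers, Plin1 and Lep were at 0 in every library, and the sum of all 7 stayed at or below 0.0926 CPM in tolerant libraries. The stimulus labels were checked on known response genes. Arg1, an arginase gene known to respond to IL-4, averaged 1117 ± 61.1 CPM with IL-4 and 2.73 ± 0.480 CPM untreated, and Il6 averaged 4.79 ± 2.23 CPM with LPS and 0.0240 ± 0.0339 CPM untreated (SD, n = 2 each). Trib3, a known amino acid stress gene, averaged 28.7 ± 7.57 CPM without glutamine and 4.32 ± 1.86 CPM with it (SD, n = 4 each). In bulk RNA, fewer cells of a type and less RNA per cell cannot be told apart.

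Per length of the main transcript, in CPM per kilobase (RPKM), the 10 genes fell into a high and a low set in every group. Lpl, Fabp5, Plin2 and Cd36 were the 4 highest in all 6 groups, with means of 154 to 741 RPKM. Lpl was highest in the AKG group (529.7 ± 244 RPKM) and in the IL-4, LPS and untreated groups (629 ± 39.5, 574 ± 74.2 and 741 ± 172 RPKM), and Fabp5 was highest without glutamine (689.7 ± 157 RPKM) and with it (649 ± 236 RPKM; SD, n = 4 in tolerant groups and 2 in the others). With AKG and with glutamine, neighbours in the order of these 4 genes lay within the larger of their SDs. Without glutamine, Fabp5 stood above Lpl (491 ± 160.3 RPKM) and Plin2 (491 ± 168 RPKM) and Cd36 (318 ± 155 RPKM) below them, by little more than 1 SD. Fabp4 and Pparg came next, at 13.2 to 74.6 RPKM for Fabp4 and 5.52 to 32.5 RPKM for Pparg. Pdk4 was the lowest of the 10 in every group except tolerant cells with glutamine, where it had 1.16 ± 0.687 RPKM and Ppargc1b had 1.08 ± 0.275 RPKM, a gap smaller than either SD. Of the Fabp4 and Fabp5 total in RPKM, Fabp4 made up 6.73 ± 2.33% with AKG, 9.90 ± 1.51% without glutamine and 5.39 ± 2.01% with glutamine (SD, n = 4 each).

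**Figure D1:**
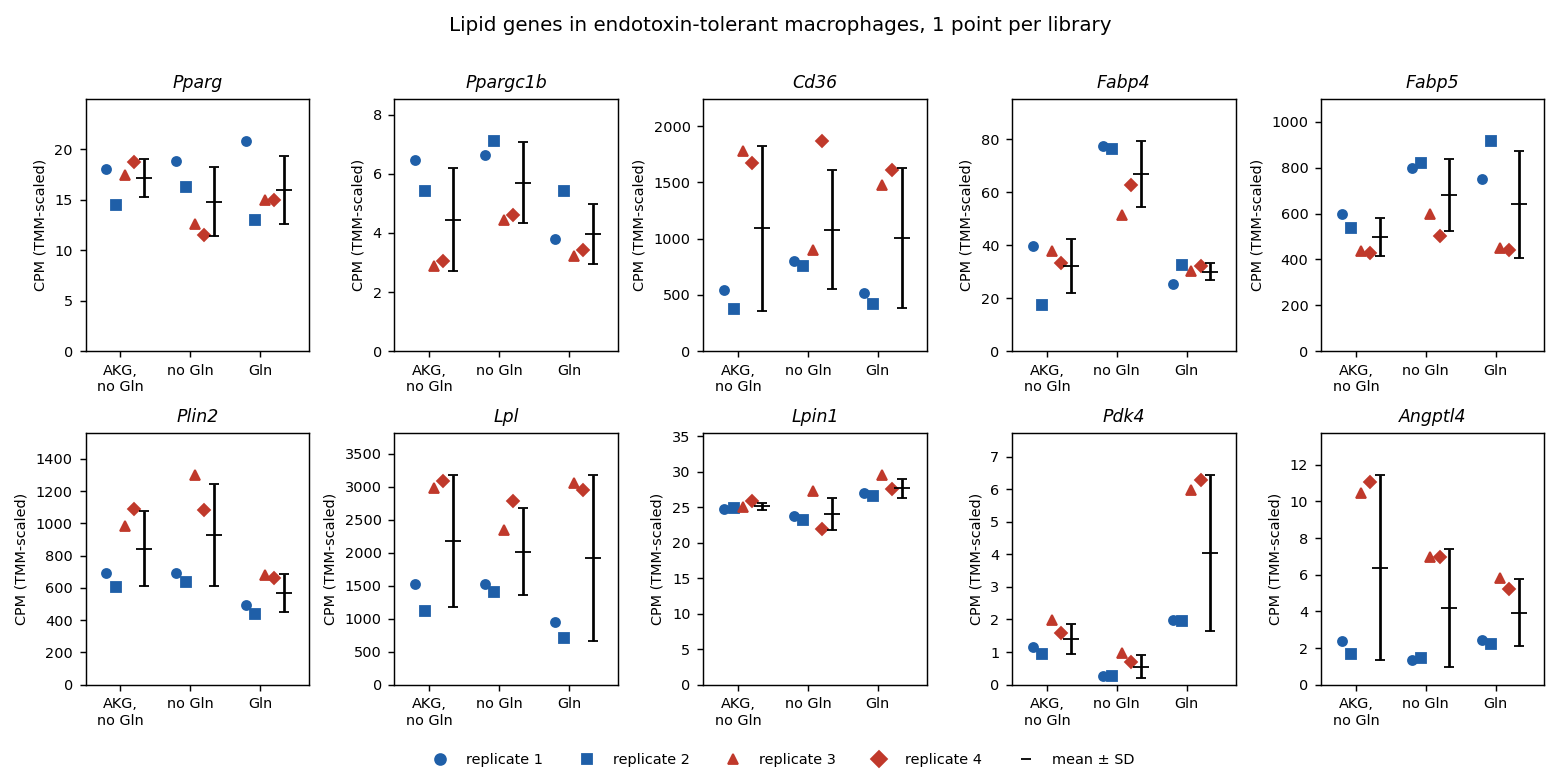
Level of each of the 10 genes in the 12 endotoxin-tolerant libraries, as CPM on a linear axis from 0, with 1 point per library and the group mean with its SD as a black bar. Blue points are replicates 1 and 2 and red points replicates 3 and 4. Fabp4 without glutamine lies between 51.2 and 77.3 CPM, above all libraries of the other groups, while Cd36, Lpl, Plin2, Pdk4 and Angptl4 are higher in the red points of every group.

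Replicates 3 and 4 stood apart from replicates 1 and 2 in all 3 tolerant groups, and 7 of the 10 genes followed that split, beside 42.9% of all tested genes (22.8% higher, 20.1% lower). The labels do not say what the replicate numbers mark. Cd36, Lpl, Plin2, Pdk4 and Angptl4 were higher in replicates 3 and 4 of every group with no overlap, and Ppargc1b and Fabp5 were lower in every group with no overlap. The ratio of replicates 3 and 4 over 1 and 2 for Angptl4 was 5.33 with AKG, 4.96 without glutamine and 2.35 with glutamine. For Lpl it was 2.30 with AKG, 1.74 without glutamine and 3.63 with glutamine. The summed level of 10 stromal fibroblast markers was also higher in replicates 3 and 4 of every group, at 152, 111, 385 and 397 CPM in replicates 1 to 4 with AKG, 55.4, 50.4, 210.1 and 193 CPM without glutamine, and 397, 435, 2079 and 2049.7 CPM with glutamine. Its part in these splits was not tested. Each tolerant result was therefore also taken from a fit with the replicate number as a block, in which same-numbered libraries are pairs, and the block value stands beside a result where it changes the call.

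The effect of glutamine withdrawal in tolerant macrophages was asked by comparing cells without and with glutamine. Fabp4 rose 2.23-fold and Pdk4 fell 7.34-fold without glutamine, and the other 8 genes did not pass the test. At an adjusted p under 0.05 in edgeR's quasi-likelihood test, these were 2 of the 10 genes and 4.78% of the 12492 tested (2.31% higher, 2.47% lower). With the replicate block it called 21.8% of genes (8.73% higher, 13.1% lower) and 5 of the 10: Fabp4, Plin2 and Ppargc1b higher, Pdk4 and Lpin1 lower. The groups did not overlap for 2 of the 10 genes and 12.4% of all genes. Leaving out replicate 2 of the group without glutamine left no call among the 10 in the fit without the block (254 genes called), with Fabp4 at an adjusted p of 0.0547 and Pdk4 at 0.0511.

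Fabp4, the adipocyte and macrophage fatty acid binding protein gene (chr3:10204088-10208576, minus strand), had 77.3, 76.3, 51.2 and 62.7 CPM in replicates 1 to 4 without glutamine, against 25.3, 32.4, 30.2 and 32.1 CPM with glutamine. Every library without glutamine was above every library with it. The log2 fold change (log2FC) was 1.16 (SE 0.23, edgeR adjusted p = 0.0174), and it was 1.41 within replicates 1 and 2 and 0.90 within 3 and 4. Fabp5, the epidermal family member (chr3:10012548-10016607, plus strand), had 799.8, 821, 599 and 503 CPM without glutamine, against 753, 915, 451 and 443 CPM with glutamine. These groups overlapped, at a log2FC of 0.09 (SE 0.25, edgeR adjusted p = 0.915). Fabp5 has processed copies in the genome that could share its reads, so its level is less certain.

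Pdk4 (chr6:5483351-5496309, minus strand) had 0.268, 0.270, 0.980 and 0.683 CPM without glutamine, from 8, 9, 30 and 20 counts, against 1.99, 1.96, 5.97 and 6.27 CPM with glutamine. The groups did not overlap, though replicates 3 and 4 were higher than 1 and 2 in each. Its log2FC was -2.88 (SE 0.55, edgeR adjusted p = 0.0146), -2.85 (SE 0.22, adjusted p = 4.3e-05) with the replicate block, -2.87 within replicates 1 and 2 and -2.85 within 3 and 4. Fitted alone, the 2 groups gave an adjusted p of 0.0537. The summed level of 10 stromal fibroblast markers moved with Pdk4: it was 55.4, 50.4, 210.1 and 193 CPM without glutamine, against 397, 435, 2079 and 2049.7 CPM with glutamine. Of the 8 stromal markers tested, 5 fell without glutamine (8 with the block). None of the 10 was at 0 in a group, and their part in the Pdk4 result was not tested.

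**Figure D2:**
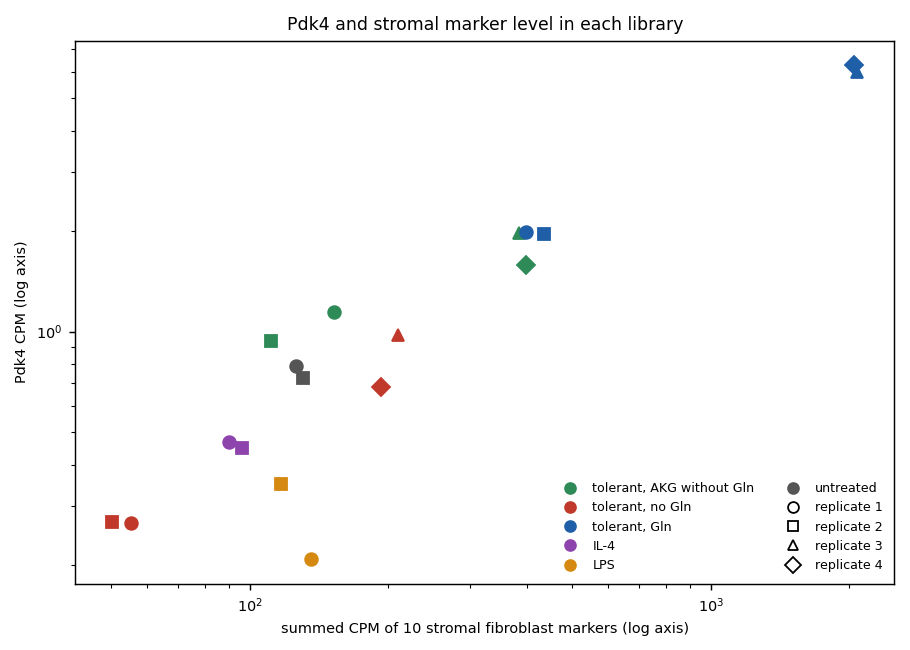
Pdk4 level against the summed level of 10 stromal fibroblast markers in each of the 18 libraries, both in CPM on log axes, with color for the group and shape for the replicate number. Tolerant libraries run from 0.268 CPM of Pdk4 at 55.4 CPM of the markers to 6.27 CPM at 2049.7 CPM. The LPS libraries have 0.209 and 0.349 CPM of Pdk4 at marker sums of 136 and 117 CPM, close to those of untreated libraries. The part of the markers in the Pdk4 level was not tested.

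Plin2, Ppargc1b and Lpin1 were called with the replicate block and not without it. Plin2 (chr4:86648386-86670060, minus strand) had 690.3, 639, 1301 and 1080.5 CPM without glutamine, against 496, 436, 679 and 661 CPM with glutamine. Within each pair of replicates the group without glutamine was higher, but its replicate 2 lay below replicates 3 and 4 with glutamine. The log2FC was 0.71 (SE 0.27, adjusted p = 0.174), and 0.67 (SE 0.08, adjusted p = 0.00057) with the block, where leaving out any library kept the call. Ppargc1b (chr18:61298136-61400431, minus strand) had 6.63, 7.10, 4.44 and 4.61 CPM without glutamine, against 3.80, 5.43, 3.21 and 3.43 CPM with glutamine. These groups overlapped, and the log2FC was 0.52 (SE 0.29, adjusted p = 0.398; 0.0357 with the block). Lpin1 (chr12:16535669-16610966, minus strand) had 23.8, 23.2, 27.3 and 21.9 CPM without glutamine, against 27.0, 26.6, 29.6 and 27.5 CPM with glutamine, a log2FC of -0.20 (SE 0.07, adjusted p = 0.163; 0.0460 with the block). Only replicate 3 without glutamine overlapped the other group. With the block, the Ppargc1b and Lpin1 calls were each lost in 7 of the 8 fits that left out 1 library, at adjusted p-values of up to 0.0906 for Ppargc1b and 0.170 for Lpin1.

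Pparg itself (chr6:115360951-115490399, plus strand) had 18.9, 16.3, 12.6 and 11.6 CPM without glutamine, against 20.8, 13.03, 15.01 and 15.01 CPM with glutamine. The groups overlapped, and the log2FC was -0.11 (95% interval -0.50 to 0.29, edgeR adjusted p = 0.846). Of the lipase and uptake genes, Cd36 (chr5:17781690-17888801, minus strand) had 803, 753, 900.0 and 1866 CPM without glutamine, against 518, 423, 1477 and 1608 CPM with glutamine. Lpl (chr8:68880491-68907448, plus strand) had 1529, 1412, 2345 and 2788 CPM without glutamine, against 948, 709, 3065 and 2957 CPM with glutamine. For both, the group without glutamine was higher in replicates 1 and 2, while in replicates 3 and 4 it was lower for Lpl and mixed for Cd36. Within replicates 1 and 2 alone both were called, at a log2FC of 0.72 for Cd36 (edgeR adjusted p = 0.0097) and 0.82 for Lpl (adjusted p = 0.0055), and within 3 and 4 the values were -0.13 for Cd36 (adjusted p = 0.840) and -0.21 for Lpl (adjusted p = 0.289). Pooled over all 4 replicates the values were 0.10 (SE 0.58) for Cd36 and 0.07 (SE 0.50) for Lpl, less than the spread. The test of the difference between the pairs of replicates gave an edgeR adjusted p of 0.0527 for Lpl and 0.348 for Cd36.

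Angptl4 (chr17:33773750-33781830, minus strand) had 1.34, 1.47, 6.96 and 6.97 CPM without glutamine, against 2.46, 2.24, 5.80 and 5.21 CPM with glutamine. The group without glutamine was lower in replicates 1 and 2, at a log2FC of -0.74 (edgeR adjusted p = 0.0323, in the fit that called 3559 genes), and higher in replicates 3 and 4, at 0.36 (adjusted p = 0.0933). The difference between these effects was 1.08 (SE 0.23, edgeR adjusted p = 0.0438; limma-voom 1.07, adjusted p = 0.0564), in a test that called 2.47% of genes. The same test for AKG over no glutamine called 0.04% of genes and none of the 10. Pooled, the log2FC was 0.09 (SE 0.73, adjusted p = 0.971).

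Genes of the wider pathway were read from the fit without the block, where edgeR called 2.31% of all genes higher and 2.47% lower. Among 15 tested genes of lipid uptake and lipoprotein receptors, Fabp3, a further fatty acid binding protein gene, rose by 0.92 on the log2 scale (SE 0.17, adjusted p = 0.0124), and the scavenger receptor gene Stab1 fell by 0.63 on the log2 scale (adjusted p = 0.0424). Among 14 tested genes of lipid droplet and triglyceride turnover, 2 rose: Hilpda, an inhibitor of droplet lipolysis, by 1.22 (SE 0.22, adjusted p = 0.0125) and Abhd5, which activates the droplet lipase, by 0.40 (SE 0.07, adjusted p = 0.0137). A further list held other PPAR targets and relatives of Angptl4 and Pdk4, called other targets below. Of its 20 tested genes, Angptl6 rose by 1.34 and Acot2, a mitochondrial acyl-CoA thioesterase gene, by 0.91 (edgeR adjusted p = 0.0128 and 0.0230). Acot2 can share reads with its near copy Acot1. The mitochondrial carrier gene Ucp2 fell by 0.72 on the log2 scale (edgeR adjusted p = 0.0176). None of 12 tested PPAR partners and coregulators was called. The list medians were 0.11, 0.12, -0.02 and 0.00 on the log2 scale in this order, against -0.01 over all tested genes. With the replicate block, 3 uptake genes rose and 2 fell, 4 droplet genes rose and 2 fell, 3 other targets rose and 2 fell, and 1 partner rose and 1 fell, of the 15, 14, 20 and 12 tested, where the block called 8.73% of all genes higher and 13.1% lower.

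AKG was added to ask what it changes when glutamine is absent. Fabp4 fell 2.09-fold with AKG, and it was the only one of the 10 genes called, where edgeR called 1.54% of all genes (0.688% higher, 0.849% lower). With the replicate block it called 15.6% of genes (8.5% higher, 7.07% lower) and 3 of the 10: Fabp4 and Fabp5 lower and Pdk4 higher. Fabp4 had 39.6, 17.4, 37.8 and 33.5 CPM with AKG, against 77.3, 76.3, 51.2 and 62.7 CPM without glutamine. The groups did not overlap, for Fabp4 alone of the 10 and for 9.1% of all genes, and the lowest library was replicate 2 with AKG. The log2FC was -1.06 (SE 0.23, edgeR adjusted p = 0.0469; 0.0172 with the block), and it was -1.43 within replicates 1 and 2 and -0.67 within 3 and 4. Without the block the call was lost whichever library was left out, at adjusted p-values of 0.0506 to 0.140, while the log2FC stayed between -1.18 and -0.86, and it was lost with no filter on low counts (0.0583) and with the 2 groups fitted alone (0.124). With the block it was lost without replicate 1 (adjusted p = 0.0582) or replicate 2 (0.0539) of the group without glutamine.

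Pdk4 had 1.14, 0.936, 1.98 and 1.58 CPM with AKG, against 0.268, 0.270, 0.980 and 0.683 CPM without glutamine. AKG was higher in every pair of replicates, but its replicate 2 lay below replicate 3 without glutamine. The log2FC was 1.36 (SE 0.54, adjusted p = 0.293), and 1.43 (SE 0.24, adjusted p = 0.0048) with the block, where leaving out any library kept the call. It was 1.94 within replicates 1 and 2 and 1.10 within 3 and 4. The stromal marker sum moved the same way, at 152, 111, 385 and 397 CPM with AKG, against 55.4, 50.4, 210.1 and 193 CPM without glutamine. Of the 8 stromal markers tested, 0 were called without the block and 6 rose with it, and their part in the Pdk4 result was not tested. Fabp5 had 597, 538, 437 and 426 CPM with AKG, against 799.8, 821, 599 and 503 CPM without glutamine, so the groups overlapped. Its log2FC was -0.45 (SE 0.25, adjusted p = 0.518; 0.0307 with the block), and the block call was lost in 6 of 8 fits that left out 1 library, at adjusted p-values of up to 0.0992.

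The other 7 genes were not called in either fit. Pparg had 18.05, 14.5, 17.5 and 18.7 CPM with AKG, against 18.9, 16.3, 12.6 and 11.6 CPM without glutamine, and the groups overlapped. The log2FC was 0.21 (SE 0.18, edgeR adjusted p = 0.719). It was -0.11 within replicates 1 and 2 and 0.59 within 3 and 4. The edgeR adjusted p of replicates 3 and 4 alone was 0.0293, in a fit that called 644 genes and 2 of the 10. The test of the difference gave an edgeR adjusted p of 0.591. Cd36 had 547, 374, 1775 and 1669.7 CPM with AKG, against 803, 753, 900.0 and 1866 CPM without glutamine, overlapping over nearly the whole range. Within replicates 1 and 2 alone Cd36 was called lower with AKG, at a log2FC of -0.76 (edgeR adjusted p = 0.0099), in a fit that called 2906 genes and 4 of the 10. Within 3 and 4 Cd36 had 0.32 (edgeR adjusted p = 0.650). Angptl4 had 2.38, 1.66, 10.5 and 11.1 CPM with AKG, against 1.34, 1.47, 6.96 and 6.97 CPM without glutamine, higher with AKG in every pair of replicates. The log2FC was 0.61 (SE 0.72, edgeR adjusted p = 0.813; 0.139 with the block). Lpl, Plin2, Lpin1 and Ppargc1b had log2FCs of 0.11, -0.14, 0.06 and -0.36. Of the pathway lists only Abhd5 was called, falling by 0.38 on the log2 scale (edgeR adjusted p = 0.0318), to 29.5 ± 2.01 CPM with AKG, against 38.4 ± 2.45 CPM without glutamine (SD, n = 4 each). With the block, 1 uptake gene rose and 2 fell, 0 droplet genes rose and 3 fell, 2 other targets rose and 4 fell, and 1 partner rose and 3 fell, where the block called 8.5% of all genes higher and 7.07% lower.

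AKG was also compared with glutamine, a comparison that shares libraries with each of the 2 above. edgeR called 0% of genes and none of the 10; 919 genes and 1 of the 10 had an unadjusted p under 0.05, and DESeq2 called 232 genes. With the replicate block it called 7.08% of genes (1.65% higher, 5.43% lower) and 2 of the 10, Plin2 higher and Pdk4 lower. Fabp4 had a log2FC of 0.10 (95% interval -0.40 to 0.60), with means of 32.1 ± 10.1 CPM with AKG and 30.0 ± 3.29 CPM with glutamine (SD, n = 4 each). Plin2 had 692, 607, 985 and 1091 CPM with AKG, against 496, 436, 679 and 661 CPM with glutamine. AKG was higher in each pair of replicates, though the groups overlapped, at a log2FC of 0.57 (SE 0.27, adjusted p = 0.703; 0.0042 with the block). Pdk4 had 1.14, 0.936, 1.98 and 1.58 CPM with AKG, against 1.99, 1.96, 5.97 and 6.27 CPM with glutamine, and only replicate 3 with AKG reached the other group. Its log2FC was -1.52 (SE 0.51, adjusted p = 0.389; 0.0025 with the block). The stromal marker sum was 152, 111, 385 and 397 CPM with AKG, against 397, 435, 2079 and 2049.7 CPM with glutamine, and its part was not tested. Lpin1 was the only one of the 10 without overlap, where 5.57% of all genes had none, with 24.7, 24.9, 24.98 and 25.9 CPM with AKG, against 27.0, 26.6, 29.6 and 27.5 CPM with glutamine. It was not called in either fit, at a log2FC of -0.14 (SE 0.07).

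**Figure D3:**
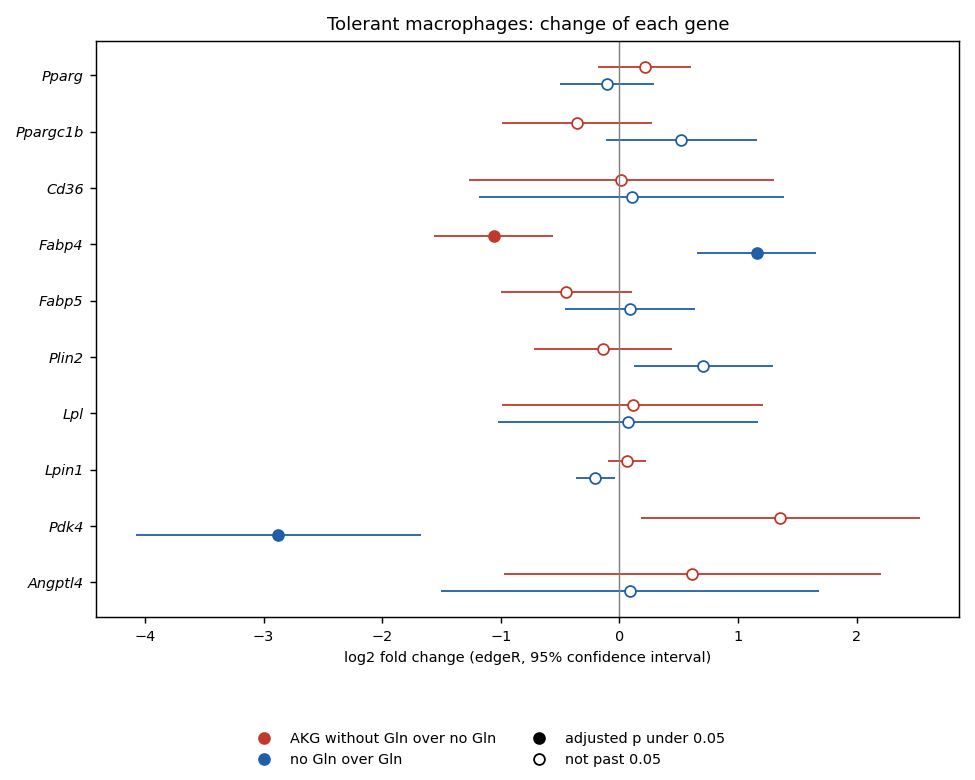
Log2 fold change of each gene in tolerant macrophages with its 95% interval from edgeR without the replicate block, for AKG over no glutamine (red) and no glutamine over glutamine (blue), with filled points for an adjusted p under 0.05. Both comparisons use the libraries without glutamine. Filled points are Fabp4 in both comparisons, at -1.06 and 1.16, and Pdk4 without glutamine, at -2.88.

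IL-4 and LPS were given for 6 h to macrophages not labelled as tolerant, to ask how either stimulus moves the same genes. With IL-4, Ppargc1b rose 13.1-fold, Lpin1 2.70-fold and Pparg 1.33-fold, while Plin2, Fabp5 and Fabp4 fell 1.93-, 1.62- and 1.59-fold. These were 6 of the 10 genes, where edgeR called 20.1% of 12506 genes (9.64% higher, 10.5% lower). With 2 libraries a group, 8 of the 10 genes and 58.3% of all genes did not overlap. Leaving out IL-4 replicate 1 left 2 of these calls (876 genes) and leaving out IL-4 replicate 2 left 3 (897 genes). Ppargc1b and Lpin1 held in each of the 4 fits that left out 1 library. Cell type markers moved with IL-4 too. Of the 10 macrophage markers, 1 rose and 3 fell, and their summed level was 27578 to 29766 CPM with IL-4, against 35124 to 39143 CPM untreated. The summed level of 5 dendritic cell markers was 7.08 and 6.55 CPM with IL-4, against 1.18 and 0.962 CPM untreated, and 2 of the 4 tested rose. Zbtb46 had 5.22 and 4.84 CPM with IL-4, against 0.336 and 0.258 CPM untreated. Flt3 had 1.43 and 1.23 CPM with IL-4, against 0.120 and 0.164 CPM untreated. Xcr1 was lower, at 0.234 and 0.247 CPM with IL-4, against 0.312 and 0.352 CPM untreated, and Ccr7 and Siglech overlapped between the groups. The summed level of 5 endothelial markers was 7.89 and 9.10 CPM with IL-4, against 30.6 and 27.9 CPM untreated. Both tested fell, with Kdr at 7.06 and 7.94 CPM with IL-4, against 27.5 and 24.2 CPM untreated. Their part in these results was not tested.

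Ppargc1b, the PGC-1β gene, had 18.7 and 18.4 CPM with IL-4, from 721 and 820 counts, against 1.22 and 1.59 CPM untreated, from 51 and 68 counts. Both IL-4 libraries were far above both untreated ones, at a log2FC of 3.71 (SE 0.17, edgeR adjusted p = 0.00023). Lpin1 had 70.5 and 79.1 CPM with IL-4, against 28.5 and 26.9 CPM untreated. The groups did not overlap, and its log2FC was 1.43 (SE 0.11, edgeR adjusted p = 0.00083). Pparg had 56.9 and 58.0 CPM with IL-4, against 41.1 and 45.0 CPM untreated. Its log2FC of 0.42 (SE 0.10, edgeR adjusted p = 0.0347) was small beside these, and the call was lost without either IL-4 library (adjusted p = 0.192 without replicate 1 and 0.220 without replicate 2) or with the 2 groups fitted alone (0.0579).

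The binding protein and droplet genes moved the other way with IL-4. Plin2 had 646 and 694 CPM with IL-4, against 1364 and 1219 CPM untreated, a log2FC of -0.95 (SE 0.13, edgeR adjusted p = 0.0057). Fabp5 had 147 and 157 CPM with IL-4, against 254 and 239 CPM untreated, a log2FC of -0.69 (SE 0.10, edgeR adjusted p = 0.0062). Fabp4 had 22.0 and 20.4 CPM with IL-4, against 30.1 and 37.5 CPM untreated, a log2FC of -0.67 (SE 0.14, edgeR adjusted p = 0.0233). None of the 3 genes overlapped between the groups, but without IL-4 replicate 1 the edgeR adjusted p-values were 0.0622 for Plin2, 0.0791 for Fabp5 and 0.121 for Fabp4, and without IL-4 replicate 2 they were 0.0599 for Fabp5 and 0.163 for Fabp4. Fitted alone, the 2 groups gave Fabp4 an adjusted p of 0.0597. Fabp4 made up 13.3 ± 1.13% of their RPKM total with IL-4 and 13.2 ± 2.27% untreated (SD, n = 2 each).

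The lipase, its inhibitor, CD36 and Pdk4 were not called with IL-4. Angptl4 had 9.11 and 9.91 CPM with IL-4, against 14.6 and 12.1 CPM untreated, without overlap, at a log2FC of -0.49 (SE 0.15, edgeR adjusted p = 0.0712; 0.0405 without untreated replicate 2). Pdk4 had 0.467 and 0.448 CPM with IL-4, against 0.792 and 0.727 CPM untreated, at a log2FC of -0.73 (SE 0.27, adjusted p = 0.127). The stromal marker sum was 90.0 and 96.4 CPM with IL-4, against 126 and 130.5 CPM untreated, and its part was not tested. Cd36 had 1988 and 1222 CPM with IL-4, against 965 and 1667 CPM untreated, and Lpl had 2704 and 2474 CPM with IL-4, against 2548 and 3549 CPM untreated. Both overlapped between the groups, with log2FCs of 0.29 (SE 0.34) and -0.24 (SE 0.19).

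**Figure D4:**
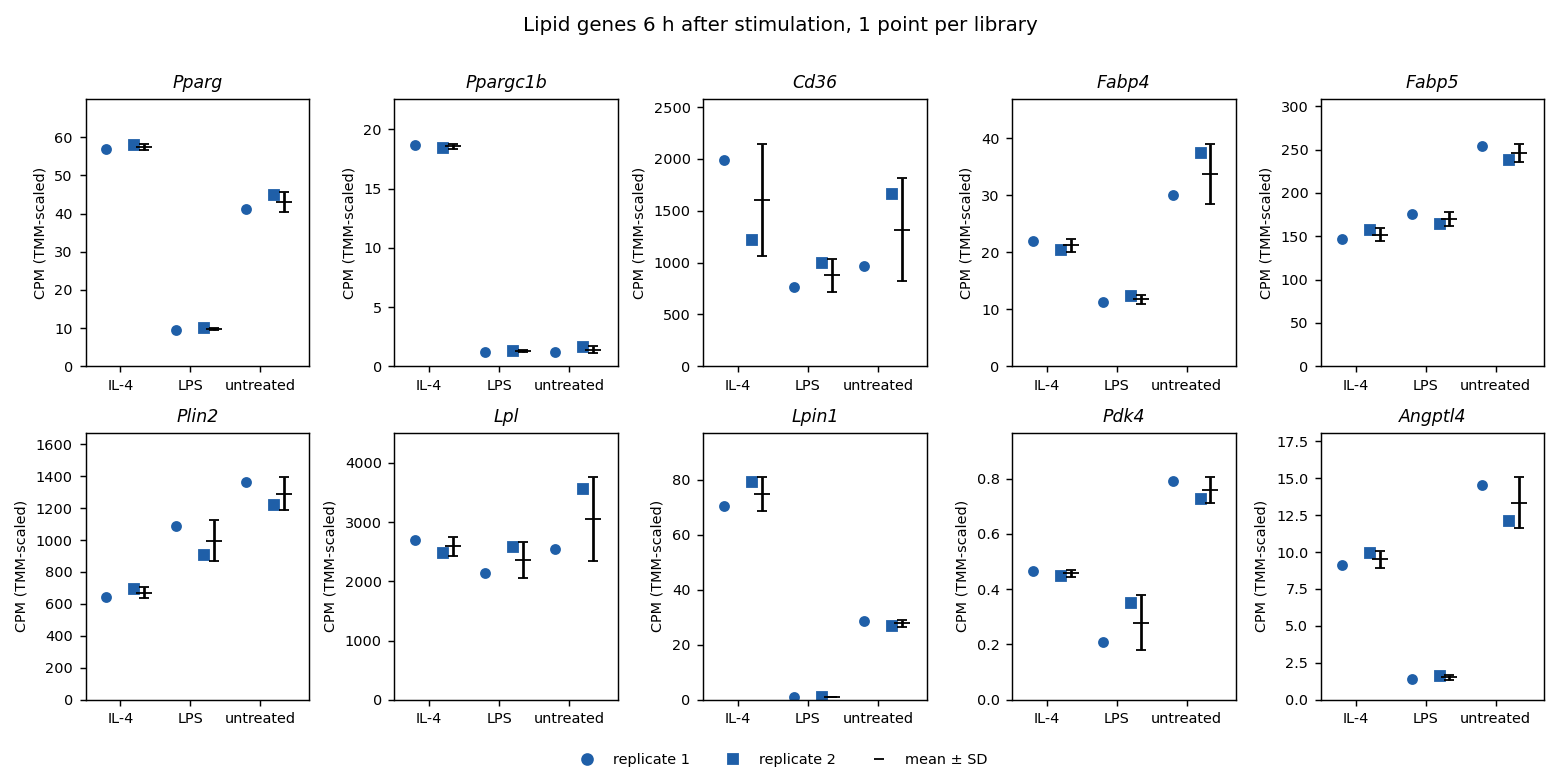
Level of each of the 10 genes in the 6 stimulation libraries, as CPM on a linear axis from 0, with 1 point per library and the group mean with its SD as a black bar. Ppargc1b is high only with IL-4 (18.7 and 18.4 CPM), Lpin1 and Pparg are highest with IL-4 and lowest with LPS, and Angptl4 and Fabp4 are lowest with LPS.

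With LPS, Lpin1 fell 31.1-fold, Angptl4 8.78-fold and Pparg 4.41-fold, followed by Fabp4, Pdk4 and Fabp5. These 6 of the 10 genes were called and all were lower. Over all genes edgeR called 52.3% (22.8% higher, 29.4% lower), a share close to that among the 10, and 7 of the 10 against 74.5% of all genes did not overlap. Scaling to total counts in place of TMM lowers every gene by 0.45 on the log2 scale in LPS against untreated cells. All of the 10 were already lower with LPS under TMM, so no sign could turn. Among genes not called, the log2 ratio of means went from -0.15 to -0.60 for Ppargc1b and from -0.37 to -0.82 for Lpl. It went from -0.37 to -0.83 for Plin2 and from -0.58 to -1.03 for Cd36. Of the 10 macrophage markers, 5 rose and 1 fell with LPS. Their summed level was 36603 to 38535 CPM with LPS, against 35124 to 39143 CPM untreated. The dendritic cell marker sum was 5.64 and 5.10 CPM with LPS, against 1.18 and 0.962 CPM untreated, with 1 of 4 tested higher. Most of it with LPS was Xcr1, at 4.91 and 4.23 CPM, against 0.312 and 0.352 CPM untreated. Zbtb46 had 0.244 and 0.349 CPM with LPS, against 0.336 and 0.258 CPM untreated. The sum of 6 neutrophil markers was 17.9 and 12.9 CPM with LPS, against 4.25 and 3.61 CPM untreated, with 1 of 3 tested higher. S100a8 made up most of this sum with LPS, at 15.2 and 10.4 CPM, against 1.54 and 1.501 CPM untreated. S100a9 had 1.46 and 1.33 CPM with LPS, against 1.296 and 1.17 CPM untreated. Ngp and Elane overlapped between the groups, Mpo was lower with LPS, and Ly6g was at 0 in both groups. The part of these markers was not tested. Pparg had 9.60 and 9.92 CPM with LPS, against 41.1 and 45.0 CPM untreated. Both LPS libraries were far below both untreated ones, at a log2FC of -2.14 (SE 0.10, edgeR adjusted p = 6.6e-05). Lpin1 had 0.870 and 0.908 CPM with LPS, from 25 and 26 counts, against 28.5 and 26.9 CPM untreated. Both LPS libraries were far below, at a log2FC of -4.96 (SE 0.14, edgeR adjusted p = 3.9e-05).

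Angptl4, the lipase inhibitor gene, had 1.39 and 1.64 CPM with LPS, against 14.6 and 12.1 CPM untreated. The groups were far apart, at a log2FC of -3.13 (SE 0.17, edgeR adjusted p = 8.9e-05). Fabp4 had 11.2 and 12.3 CPM with LPS, against 30.1 and 37.5 CPM untreated, a log2FC of -1.52 (SE 0.14, edgeR adjusted p = 0.00048). Fabp5 had 176 and 164 CPM with LPS, against 254 and 239 CPM untreated, a smaller fall of 0.54 on the log2 scale (SE 0.10, edgeR adjusted p = 0.0056). The Fabp4 share of the Fabp4 and Fabp5 total in RPKM was 7.12 ± 0.752% with LPS and 13.2 ± 2.27% untreated (SD, n = 2 each).

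Pdk4 had 0.209 and 0.349 CPM with LPS, from 6 and 10 counts, against 0.792 and 0.727 CPM untreated, from 33 and 31 counts. Its log2FC was -1.43 (SE 0.31, edgeR adjusted p = 0.0114), and the adjusted p was 0.0669 without LPS replicate 1 and 0.0658 in DESeq2. Here the stromal marker sum was 136 and 117 CPM with LPS, against 126 and 130.5 CPM untreated, so the groups overlapped in it. Of the 8 stromal markers tested, 1 rose and 0 fell with LPS, where edgeR called 22.8% of all genes higher and 29.4% lower. Their part in the Pdk4 result was not tested. Plin2 had 1087 and 907 CPM with LPS, against 1364 and 1219 CPM untreated, at a log2FC of -0.37 (SE 0.13, edgeR adjusted p = 0.0535; 0.0467 without untreated replicate 2). Lpl had 2146 and 2577 CPM with LPS and Cd36 767 and 992 CPM, against 2548 and 3549 CPM and 965 and 1667 CPM untreated. Both overlapped between the groups, with log2FCs of -0.37 (SE 0.19) for Lpl and -0.58 (SE 0.34) for Cd36. Ppargc1b had 1.22 and 1.33 CPM with LPS, against 1.22 and 1.59 CPM untreated, at a log2FC of -0.15 (95% interval -0.59 to 0.30).

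IL-4 and LPS were set against each other in a comparison that uses the same libraries as the 2 above. edgeR called 53.1% of genes (29.7% higher, 23.4% lower) and 6 of the 10, a share close to that of all genes: Lpin1, Ppargc1b, Angptl4, Pparg and Fabp4 higher with IL-4, and Plin2 lower. The groups did not overlap for 9 of the 10 and 80.3% of all genes. Lpin1 spanned the widest range of the 10, with 70.5 and 79.1 CPM with IL-4 and 0.870 and 0.908 CPM with LPS, a log2FC of 6.39 (SE 0.14, edgeR adjusted p = 1.6e-05). Pparg differed by 2.56 (SE 0.11, edgeR adjusted p = 3.0e-05), Ppargc1b by 3.86 (SE 0.17), Angptl4 by 2.65 (SE 0.17) and Fabp4 by 0.85 (SE 0.14, adjusted p = 0.0040). Plin2 had a log2FC of -0.57 (SE 0.13, adjusted p = 0.0122); it was not called without LPS replicate 1 (0.0734), IL-4 replicate 1 (0.0860) or IL-4 replicate 2 (0.0544), and scaled to total counts the log2 ratio of its means was -0.09. That scaling raises every gene by 0.48 in IL-4 against LPS, and Fabp5, not called at -0.16, turned to 0.32 with it.

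**Figure D5:**
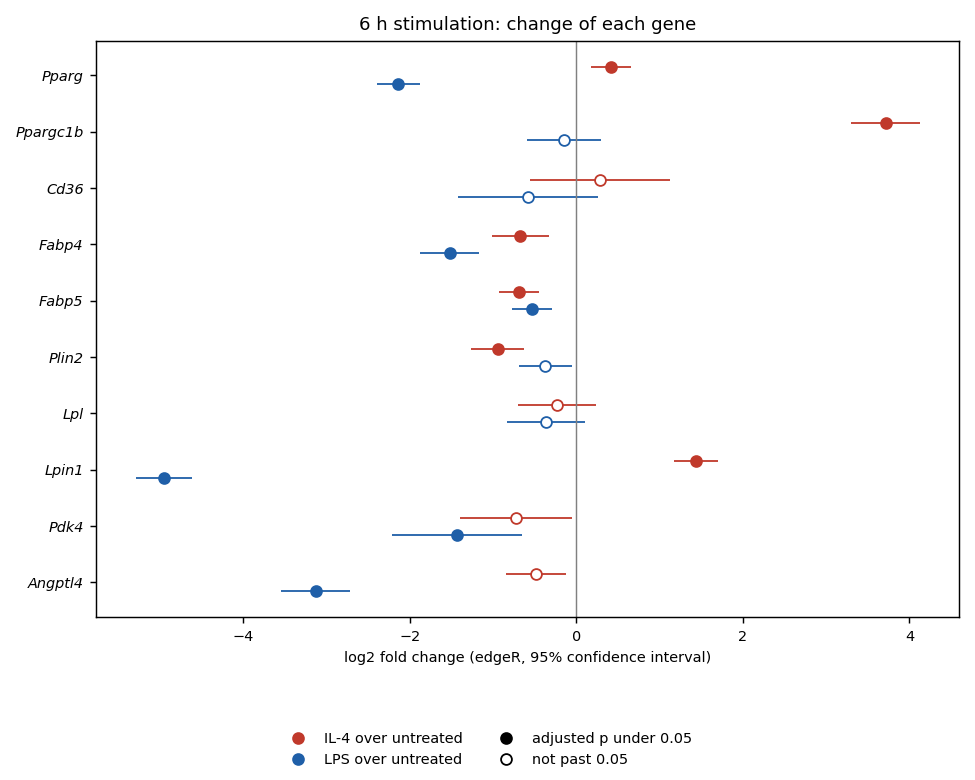
Log2 fold change of each gene after 6 h with its 95% interval from edgeR, for IL-4 over untreated (red) and LPS over untreated (blue), with filled points for an adjusted p under 0.05. Both comparisons use the untreated libraries. Ppargc1b is at 3.71 with IL-4 and Lpin1 at -4.96 with LPS, and no gene has a filled point above 0 with LPS.

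Of the wider pathway, 4 of 12 tested PPAR partners and coregulators were higher with IL-4 than with LPS and 1 was lower, led by Cebpa at a log2FC of 3.59 and Cebpb at -2.06, where 29.7% of all genes were higher and 23.4% lower. With IL-4, 3 of 12 tested genes rose and 0 fell, among them Pprc1, a relative of PGC-1β, by 0.61 on the log2 scale and the transcription factor gene Cebpa by 0.82 (edgeR adjusted p = 0.0148 and 0.0440). For the following counts, edgeR called 9.64% of all genes higher and 10.5% lower with IL-4, and 22.8% higher and 29.4% lower with LPS. With LPS, 3 of the 12 partners rose and 5 fell, at a median of -0.60, against -0.10 over all genes. Rxra, the dimer partner of PPAR-gamma, fell by 1.55 and Cebpa by 2.77, while Cebpb rose by 2.35 and Pprc1 by 0.66 on the log2 scale. Rxra averaged 41.8 ± 0.235 CPM with LPS and 123 ± 12.9 CPM untreated (SD, n = 2 each).

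Of 15 tested lipid uptake genes outside the 10, 0 rose and 4 fell with IL-4: the lipoprotein receptor gene Lrp1 by 1.31, the lysosomal lipase gene Lipa by 0.82, the HDL receptor gene Scarb1 by 0.66 and Stab1 by 0.71. With LPS 3 rose and 6 fell, not far from the shares of all genes, among them Fabp3, which rose by 2.50, Lipa, which fell by 1.51, and Cd300lf, which fell by 2.11 on the log2 scale. Between IL-4 and LPS the scavenger receptor gene Msr1 was lower, with 103 ± 31.5 CPM with IL-4 and 2013 ± 280.1 CPM with LPS, a log2FC of -4.29 (SE 0.42, edgeR adjusted p = 0.00050). Of the 15 uptake genes, 5 were higher and 6 lower with IL-4 than with LPS, where edgeR called 29.7% of all genes higher and 23.4% lower. The list medians were -0.37 with IL-4, against -0.04 over all genes, and -0.33 with LPS.

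Droplet and triglyceride genes were mixed. Of 13 tested, 1 rose and 1 fell with IL-4. Dgat2, which makes triglyceride, rose by 1.88 from a low level, to 2.50 ± 0.139 CPM with IL-4, against 0.678 ± 0.195 CPM untreated. Lpin2, a lipin like Lpin1, fell by 1.81 on the log2 scale to 84.6 ± 5.65 CPM with IL-4, against 297 ± 16.7 CPM untreated (SD, n = 2 each, edgeR adjusted p = 0.00049). With LPS 4 rose and 4 fell, also not far from the shares of all genes, among them Dgat2, which rose by 2.88, Hilpda by 1.34, the lipase gene Lipe by 0.85, and Plin3, which fell by 0.99. Of 21 tested other targets, the list of PPAR targets and relatives of Angptl4 and Pdk4, 4 rose and 3 fell with IL-4. With LPS 2 rose and 13 fell, at a median of -0.69. Angptl2, an angiopoietin-like gene, rose by 1.51 with IL-4 and fell by 2.62 with LPS, and Pdk2, the paralog of Pdk4, fell by 2.91 with LPS. Ucp2 fell by 1.41 and Acaa2, of fatty acid oxidation, by 1.23 with LPS. With IL-4 Acot1, a near copy of Acot2 with which it can share reads, fell by 2.36. It was low throughout, at 0.293 ± 0.157 CPM with IL-4, against 1.55 ± 0.394 CPM untreated (SD, n = 2 each). Cpt1a, the gate of fatty acid entry into mitochondria, fell by 0.45 and Pdk3 rose by 0.67 with IL-4. Between IL-4 and LPS, 3 of 13 droplet genes were higher with IL-4 and 7 lower, and 14 of 21 other targets were higher and 2 lower. In that comparison edgeR called 29.7% of all genes higher and 23.4% lower. The median was 0.61 for the other targets, against 0.10 over all genes.

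Over the 12 tolerant libraries, the gene whose log2 CPM was most like Pparg among the 9620 ranked (mean log2 CPM 2 or more) was Gtdc1 (Pearson r = 0.86), then Hip1 (0.74) and Amn1 (0.71). Over the 6 stimulation libraries, among 9312 genes, they were Xrcc6, Mtap and Map1a (all r = 0.999). Xrcc6 averaged 16.3 CPM with IL-4, 4.99 CPM with LPS and 13.7 CPM untreated. These libraries share groups and depth, so the values describe likeness of pattern only.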

How the data were processed

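Raw read counts per gene symbol were deposited by the authors in 2 tables, one per library set, from TruSeq stranded libraries per the labels' protocols. STAR, HTSeq and mm10 are named in the submitters' processing notes; neither their versions nor HTSeq's strand setting is given in the sources used here. No exon of the 10 genes overlaps an exon of another gene in GENCODE vM21 (GRCm38). Tests ran per table, all groups together, with TMM, filterByExpr and the quasi-likelihood F test of edgeR 4.0.16, under R 4.3.3 with limma 3.58.1. The filter kept 12492 of 23052 genes in the tolerant table and 12506 in the stimulation table. Benjamini-Hochberg adjustment ran over all tested genes, and an adjusted p under 0.05 was called. Fits were tested on simulated data. CPM was divided by the principal transcript's length in kilobases for RPKM. SE denotes the standard error of a log2 fold change.

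Deviations from group means correlated between same-numbered libraries in all 12 tolerant pairs (0.501 to 0.823), so the numbers were taken as pairs there, by a rule on the correlations and not from the labels. Different-numbered libraries gave 0.465 to 0.836 where both were among replicates 1 and 2 or both among 3 and 4, and -0.838 to -0.567 otherwise, so the correlations show that split and do not tell 1 from 2 or 3 from 4. In the stimulation set the values were -0.662 to 0.501 and the numbers were not taken as pairs.

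The genes and lists were chosen with earlier results of these data known. Named were all 10 genes and, per pathway list and comparison, up to 4 called genes with the smallest p. Some genes that this rule names are not reported here. To these came the 3 genes most like Pparg in each table, and Arg1, Retnla, Il6 and Trib3. Retnla averaged 90.3 ± 10.0 CPM with IL-4 and was at 0 untreated (SD, n = 2 each). Alternatives were RLE size factors, no filter, DESeq2 1.42.0, limma-voom, the 2 groups alone, the replicate block, the pairs of replicates as a factor or alone, and each library left out. A list gene overlapping another gene is less certain. Plots came from matplotlib 3.10.9 in Python 3.11.15.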

Additional observations from a re-analysis of the deposited data

Results flagged for a closer look

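Cd36 without glutamine had 1 library far from the other 3: replicate 4, at 1870 CPM to 3 digits, against 753 to 900.0 CPM in the others. Its gap to the nearest library, divided by the range of the group, was above Dixon's 95% critical value for 4 samples. In this gene replicate 4 had 1669.7 CPM with AKG and 1608 CPM with glutamine, near its level here, while replicate 3 had 900.0 CPM here, against 1775 CPM with AKG and 1477 CPM with glutamine. Of 30 groups tested this was the only one, and chance alone picks out about 1 in 20. Without replicate 4 the log2 fold change of Cd36 over the glutamine group was -0.27, against 0.10 with it.

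The effect of glutamine withdrawal on Angptl4 differed between replicates 3 and 4 and replicates 1 and 2 in edgeR, a call that limma-voom missed. The log2 fold change without glutamine over with glutamine was 0.36 in replicates 3 and 4 and -0.74 in replicates 1 and 2, a difference of 1.08 (SE 0.23, edgeR adjusted p = 0.0438; limma-voom 1.07, adjusted p = 0.0564).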

How the results depend on the processing

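Across the alternatives, 220 values for called genes among the 10 kept their call, 29 kept their direction but missed 0.05 and 0 turned. For genes not called, 492 values stayed, 42 passed with their sign kept and 57 turned in sign, 2 of which passed with the new sign. The cause was not tested. For no glutamine over glutamine (2 of the 10 genes and 597 genes called) the numbers of the 10 and of all genes were 1 and 267 with the 2 groups alone, 5 and 2724 with the replicate block that pairs libraries by number, 5 and 3117 with the pair of replicates as a factor, and 8 and 3559 in replicates 1 and 2 alone. Replicates 3 and 4 alone called 1656 genes and DESeq2 1260. Leaving out 1 library gave 0 to 3 of the 10 and 254 to 481 genes (3 to 5 of the 10 with the block). For AKG over no glutamine (1 and 192) they were 0 and 106 with no filter, 0 and 68 with the 2 groups alone, 3 and 1945 with the block, 3 and 2347 with the factor, 4 and 2906 in replicates 1 and 2, and 2 and 644 in replicates 3 and 4. DESeq2 called 682 genes. Leaving out 1 library gave 0 of the 10 and 28 to 122 genes (1 to 3 of the 10 with the block). For AKG over glutamine (0 and 0) they were 2 and 884 with the block, 2 and 1155 with the factor, 4 and 1432 in replicates 1 and 2, and 3 and 782 in replicates 3 and 4. DESeq2 called 232 genes.

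Signs turned for genes that the fit without the block did not call. For no glutamine over glutamine, the log2 fold change of Angptl4 was -0.24 in limma-voom, -0.13 with the block, -0.12 with the factor and -0.74 in replicates 1 and 2 (adjusted p = 0.0323), where Pparg had 0.057 and Fabp5 -0.044. In replicates 3 and 4 Cd36 had -0.13 and Lpl -0.21. For AKG over no glutamine, Cd36 had -0.19 in limma-voom, -0.23 with the block, -0.24 with the factor and -0.76 in replicates 1 and 2 (adjusted p = 0.0099), where Pparg had -0.11 and Lpl -0.15. For AKG over glutamine, replicates 1 and 2 gave Pparg -0.054, Cd36 -0.034, Fabp4 -0.025 and Angptl4 -0.22, and replicates 3 and 4 gave Ppargc1b -0.13. Leaving out 1 library, the lowest and highest values for no glutamine over glutamine were -0.23 and 0.047 for Pparg, -0.27 and 0.44 for Cd36, -0.047 and 0.31 for Fabp5, -0.20 and 0.41 for Lpl, and -0.27 and 0.40 for Angptl4. For AKG over no glutamine they were -0.32 and 0.40 for Cd36, -0.29 and 0.070 for Plin2, and -0.11 and 0.33 for Lpl. For AKG over glutamine they were -0.068 and 0.35 for Ppargc1b, -0.20 and 0.45 for Cd36, -0.021 and 0.30 for Fabp4, and -0.092 and 0.52 for Lpl. In the stimulation set they were -0.11 and 0.73 for Cd36 and -0.37 and 0.021 for Lpl with IL-4, and -0.23 and 0.056 for Ppargc1b with LPS.

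In the stimulation set the numbers were not taken as pairs. The replicate block put Pparg at an adjusted p of 0.0654 for IL-4 over untreated, and a block with the IL-4 numbers swapped, added after the data were seen, called 3988 genes (2513 with no block). Leaving out 1 library gave 2 to 7 of the 10 and 876 to 2500 genes for IL-4. The Angptl4 difference between the pairs of replicates, 1 call in edgeR, gave 0 in limma-voom.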

Other observations

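Adipoq, the adiponectin gene and an adipocyte marker, had 1.45 and 1.17 CPM with IL-4, from 56 and 52 counts, against 0.0240 and 0 CPM untreated, from 1 and 0 counts. In LPS libraries it was at 0. Of the other adipocyte markers, Plin1, Lep, Cfd and Cidec were at 0 with IL-4, and Retn and Cidea had at most 1 count per library. Adipoq was named after its values were seen.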
